A study of Homo sapiens with 2 samples.

Results

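The proteasome is the protease that degrades most short-lived and damaged proteins of the cell, usually after they have been tagged with ubiquitin. Its barrel, the 20S core, is built of stacked rings of alpha and beta subunits, and only some of the beta subunits cut peptide bonds. The 19S particle caps the barrel. Its base unfolds the substrate with a ring of ATPases, and its lid removes the ubiquitin. All of these subunits occur in fixed numbers per particle, dedicated chaperones put the particle together, and cells under interferon exchange the catalytic beta subunits for inducible ones that favour peptides for antigen presentation. The genes of this machine were examined in BJ cells, an established line of human skin fibroblasts.

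The members were all genes in the deposited table whose current symbol begins with PSM, a letter from A to G and a digit. This rule selected 47 of the 12353 genes with a value. Of these, 45 encode core subunits, 19S subunits, assembly chaperones, activators or the inhibitor of the proteasome, and they are divided here into 8 classes that list 48 genes. The 3 listed genes without a value were PSMB3, a constitutive core subunit, and PSMA8 and PSMB11, the core subunits known from testis and thymus. The other 2 genes that the rule selected are not proteasome genes and were left out of every count below. They were PSMC3IP, a recombination factor with 84.3 FPKM in library a versus 93.8 in library b, and PSME3IP1, a nuclear protein that binds an activator, with 14.4 and 12.7.

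The study consists of 1 group of 2 biological replicates, untreated BJ cells grown in medium with serum, so no conditions could be compared and no p-value is given. Nascent RNA was measured by GRO-seq, in which polymerases already on a gene extend their transcripts in isolated nuclei with a bromine-tagged nucleotide, and the tagged RNA is captured and sequenced. Values are FPKM, a count of fragments divided by gene length and by library size, and they describe engaged polymerase rather than mature mRNA or protein. The 2 libraries are named a and b after their columns, which carry no replicate number. Errors are the SD over the 2 libraries (n = 2). The sources used here do not give the length that each value was divided by, so a difference in level between genes also carries that choice. A gene without a value is described only as such, since the table lists none below 0.27 FPKM. Only 12202 of its 12353 identifiers had a current symbol, so a listed gene could also be missing through its identifier. Which of these applies to PSMB3 was not tested. All 10 listed fibroblast markers had a value, and 8 of them exceeded the median of all genes. COL1A1 had 649 ± 48.1 FPKM, VIM 539 ± 9.28 and COL1A2 353 ± 7.53, and DCN was lowest at 7.34 ± 0.495. Of 10 listed markers of other cell types, 8 had none, and the exceptions were the lysosomal gene CD68 (114 ± 2.44 FPKM) and CDH1 (1.49 ± 0.0141 FPKM).

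Proteasome genes had higher FPKM of nascent RNA than the typical gene, without matching for gene length. They had a median FPKM of 29.0 in library a and 31.2 in library b, against 11.8 and 11.7 for all genes. On the scale log2(FPKM + 0.1), averaged over the libraries, their median lay 1.34 ± 0.0793 above that of all genes, a fold of 2.53. Mean FPKM exceeded the median of all genes for 40 of the 45, against 50.0% of all genes, and it exceeded the upper quartile (22.2 FPKM) for 32 of the 45, or 71.1%, against 25.0% of all genes. The 5 members below the median were PSMA2 and the chaperone genes PSMD5, PSMD9, PSMG4 and PSMG2. Among the 39 members that overlap no other coding gene, 35 lay above the median of all genes and 28 above the upper quartile.

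**Figure D1:**
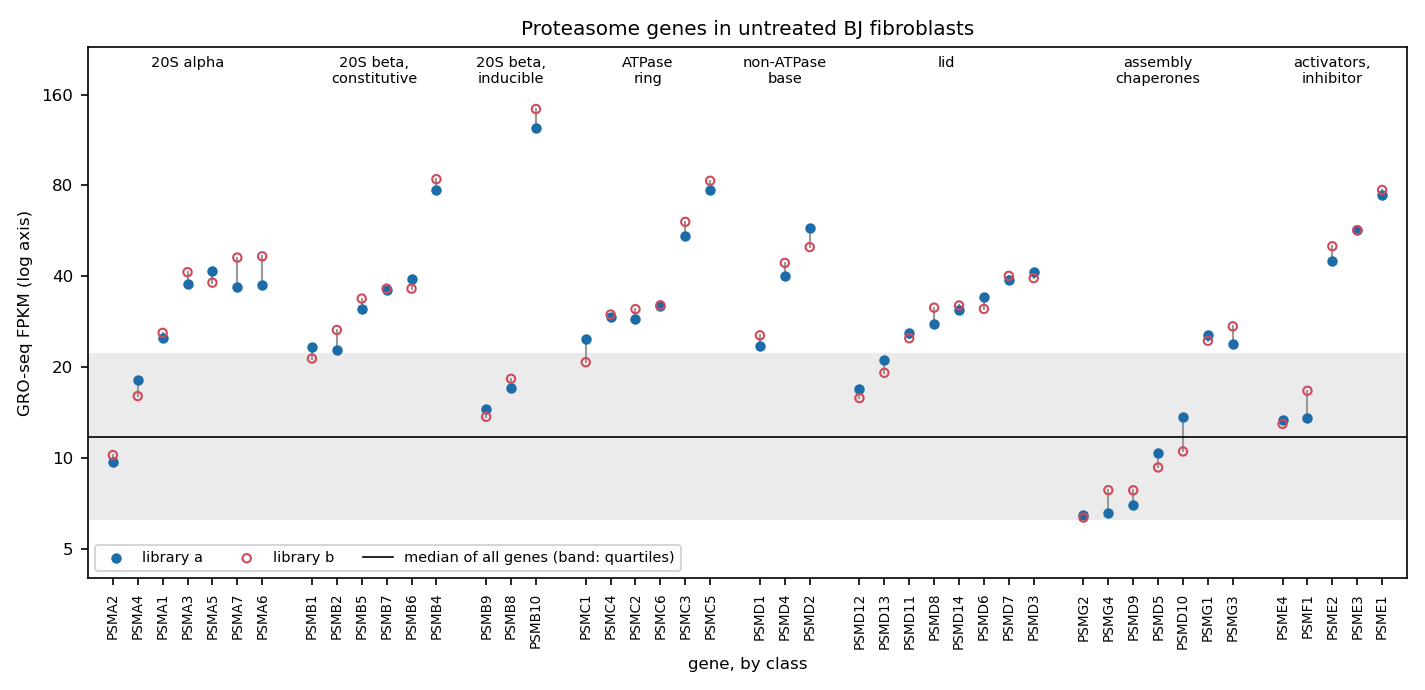
Nascent RNA of the 45 proteasome genes with a value. Each gene has its FPKM (vertical, log axis) in library a (filled) and library b (open), grouped by class along the horizontal axis. The line is the median of all 12353 genes and the band spans their quartiles. All but 5 genes have a mean above the line, and 4 of those 5 are assembly chaperones, while PSMB10 stands highest.

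The levels ranged 20.9-fold, from PSMG2 (6.41 ± 0.0778 FPKM) to PSMB10 (134 ± 13.5 FPKM). The libraries ordered the members alike: of the 990 pairs of members, 931 (94.0%) stood in the same order in both, and Spearman's rho between the libraries over the 45 genes was 0.978. Close neighbours in the order were not resolved. Of the 44 pairs of neighbours only 17 kept their order in both libraries, and for only 7 did the log2 difference exceed 2 SD of that difference over the libraries. The 3 highest genes after PSMB10 were PSMB4, PSMC5 and PSME1, which belong to 3 different classes.

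The alpha subunits form the outer rings of the core and gate its entrance. Of the 7 with a value, 4 stood close together: PSMA6 had an FPKM of 37.5 in library a and 46.6 in library b, PSMA7 had 36.8 and 46.2, PSMA5 had 41.7 and 38.1, and PSMA3 had 37.6 and 41.3. Their ranges over the libraries overlapped, and among them only PSMA6 and PSMA7 were next to each other with the same order in both. The gene for PSMA1 was lower, with 24.9 and 26.0 FPKM, and PSMA4 lower again with 18.1 and 16.04. PSMA2 stood apart from the other alpha genes. It had 9.74 FPKM in library a versus 10.2 in library b, below the median of all genes in both, and the class spanned a 4.21-fold range between it and PSMA6. Pseudogenes are named after both, 3 for PSMA2 and 4 for PSMA6, and how reads with several matches were handled is unknown. The alpha median lay 1.75 ± 0.0402 above that of all genes on the log2 scale. Without library a it was 1.70 and without library b 1.64, because a different gene was the middle one in each library.

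The beta subunits form the inner rings. Among the constitutive ones, PSMB5, PSMB6 and PSMB7 carry the catalytic sites and the others are structural. The 3 catalytic genes were alike: PSMB6 had 39.2 FPKM in library a versus 36.4 in library b, PSMB7 had 36.1 and 36.4, and PSMB5 had 31.1 and 33.8. PSMB4, a structural subunit, was higher than every other constitutive beta gene in both libraries, with 77.5 and 83.9 FPKM, and only 3.19% of all genes stood above its mean. The remaining structural genes were the lowest, with 22.8 and 26.6 FPKM for PSMB2 and 23.4 and 21.4 FPKM for PSMB1. All 6 measured genes of the class had a mean above the upper quartile of all genes, although PSMB1 lay below it in library b. The median of the alpha genes exceeded that of these beta genes by 0.20 on the log2 scale with levels averaged over the libraries. Within each library it was less, 0.14 in library a and 0.12 in library b. That direction depends on the summary, since with list means in place of medians the alpha genes were lower (-0.37), and PSMA2 and PSMB4 are the extremes of the core.

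The inducible catalytic subunits differed from each other far more than the constitutive ones. PSMB8, PSMB9 and PSMB10 replace PSMB5, PSMB6 and PSMB7 in the immunoproteasome, the form known from immune cells and from cells exposed to interferon gamma. PSMB8 had 17.0 FPKM in library a versus 18.3 in library b, so that PSMB5 exceeded it 1.83-fold (log2 ratio 0.87 ± 0.0116). PSMB9 had 14.6 and 13.7 FPKM, and PSMB6 exceeded it 2.66-fold (log2 ratio 1.41 ± 0.0122). The third pair went the other way. PSMB10 had 124 FPKM in library a versus 143 in library b, so that PSMB7 lay 3.67-fold below it (log2 ratio -1.88 ± 0.137). The sign of each of the 3 ratios was the same in both libraries, and the size exceeded 2 SD over the libraries. PSMB10 was the highest of all members and only 1.55% of all genes stood above it. The class median was 0.95 ± 0.0265 below that of the constitutive beta genes on the log2 scale, and with list means the difference came to 0.14, since 1 of the 3 genes is PSMB10.

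**Figure D2:**
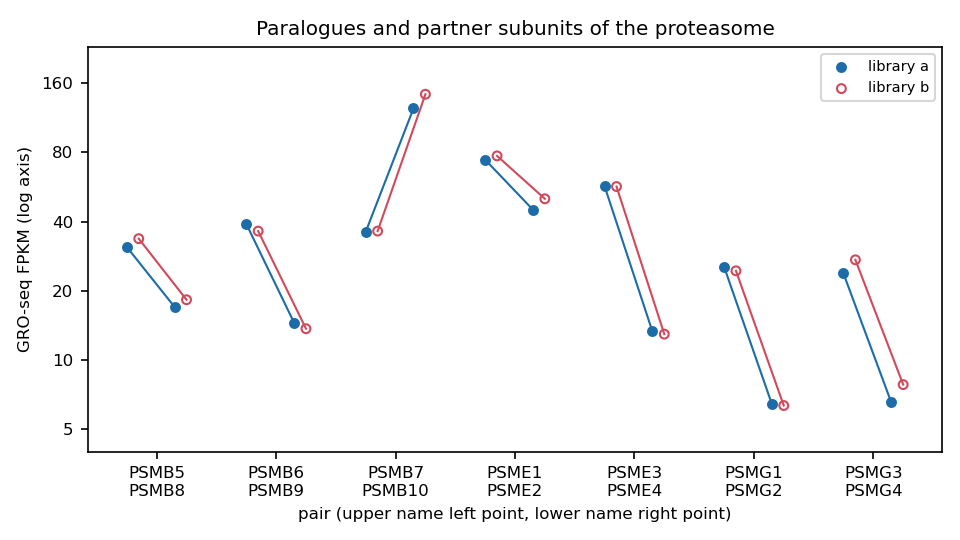
FPKM (vertical, log axis) of 7 pairs of related proteasome genes in library a (filled) and library b (open); each line joins the members of a pair within 1 library, the upper name on the left. The lines fall from left to right in 6 pairs, and rise from PSMB7 (36.3 FPKM on average) to PSMB10 (134 FPKM).

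The inducible genes were read against their surroundings. PSMB8 and PSMB9 lie in the class II region of the major histocompatibility complex, next to the genes of TAP, the pump that carries proteasome products into the endoplasmic reticulum. TAP1, between them, had an FPKM of 12.01 in library a and 13.3 in library b, near the level of PSMB9, and TAP2 had 2.88 and 2.25. The coding neighbours of PSMB10 were far below it. CTRL, which encodes a chymotrypsin-like protease, had 12.8 and 19.8 FPKM, and LCAT, which encodes a cholesterol-esterifying enzyme of plasma, had 30.5 and 27.9. None of the 3 inducible genes overlaps another coding gene in RefSeq, and PSMB8 overlaps the antisense RNA PSMB8-AS1. Whether strand was used in counting is unknown, so sense and antisense reads cannot be told apart there, nor at PSMA3 and PSMD6, which have antisense RNAs too. PSMA6 overlaps the annotated readthrough PRORP-PSMA6.

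The sequences upstream of PSMB5, PSMB9 and PSMB10 are shown because these genes differ both in level and in the motifs they hold. Promoters are RefSeq's on GRCh38.p14 and run from 250 bases before the start of transcription to 50 after it. Where a gene has several starts, the first in the table was taken. The printed stretch is the 250 bases before the start, 5′ to 3′ on the strand of the gene. Capitals mark matches to 7 motifs searched on both strands: the antioxidant response element core TGACNNNGC, the centre of the NRF-1 palindrome TGCGCA, the ETS core CCGGAAG, the CCAAT box, the GC box GGGCGG, the TATA box TATAAA and the core of the interferon-stimulated response element GAAANNGAAA. The last motif was added after the PSMB10 sequence had been seen. PSMB5 is shown from chr14:23035221-23035470 (minus strand), PSMB9 from chr6:32853942-32854191 (plus strand) and PSMB10 from chr16:67936851-67937100 (minus strand).
PSMB5: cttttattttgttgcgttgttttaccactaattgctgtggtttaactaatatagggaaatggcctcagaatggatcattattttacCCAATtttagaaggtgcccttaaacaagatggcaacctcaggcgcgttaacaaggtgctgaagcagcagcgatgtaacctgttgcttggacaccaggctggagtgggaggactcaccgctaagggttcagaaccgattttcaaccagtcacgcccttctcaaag
PSMB9: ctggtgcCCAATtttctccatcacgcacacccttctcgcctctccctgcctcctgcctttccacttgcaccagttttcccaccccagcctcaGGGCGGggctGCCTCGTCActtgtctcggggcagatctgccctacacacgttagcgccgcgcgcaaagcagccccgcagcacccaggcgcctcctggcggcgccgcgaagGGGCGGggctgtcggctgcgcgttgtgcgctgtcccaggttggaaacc
PSMB10: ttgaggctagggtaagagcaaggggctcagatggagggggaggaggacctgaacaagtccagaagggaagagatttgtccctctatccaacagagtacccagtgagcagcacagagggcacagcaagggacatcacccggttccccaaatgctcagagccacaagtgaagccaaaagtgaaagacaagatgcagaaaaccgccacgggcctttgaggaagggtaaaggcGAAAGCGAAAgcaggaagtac
The PSMB9 stretch holds a CCAAT box, a pair of GC boxes and a response element core on the opposite strand. The PSMB10 stretch holds the interferon element alone, close to the start. The stretch of PSMB5 holds only a CCAAT box, and that upstream of PSMB8, not printed, held none of the 7 motifs. The PSMB8 promoter does hold a GC box, which is not within those 250 bases. Promoters of PSMB6 and PSMB7 were not analysed here.

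The interferon element core was then searched in all promoters. It occurred in 6 of the 39 members with a promoter in the table (15.4%), against 2.73% of the 9936 measured genes with a promoter and 3.57% of all 35116 promoters. The gene that led to the search, PSMB10, is 1 of the 6, so this count is a description. The others were PSMB4, PSMG4, PSME1, PSME2 and PSMA4. With any listed start in place of the first it was 7 of 39, against 3.85% of measured genes. In PSME1 the match lies after the start and is not printed. The other 5 are shown with 10 bases on each side of the capitals, all on the strand of the gene, to compare the matches. They are taken from chr16:67936852-67936881 (minus strand), chr14:24146619-24146648 (minus strand), chr6:3258904-3258933 (plus strand), chr1:151399495-151399524 (plus strand) and chr15:78540155-78540184 (plus strand) in the order printed.
PSMB10: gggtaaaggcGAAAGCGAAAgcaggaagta
PSME2: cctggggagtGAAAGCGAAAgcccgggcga
PSMG4: ttccggggccGAAAGCGAAAgcgcgctcgg
PSMB4: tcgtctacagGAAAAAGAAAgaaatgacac
PSMA4: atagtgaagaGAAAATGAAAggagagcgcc
PSMB10, PSME2 and PSMG4 share the same letters in capitals. Their levels did not go together: PSMB10 had 134 ± 13.5 FPKM, PSME2 47.7 ± 3.67 and PSMG4 only 7.20 ± 0.898. The median FPKM was 61.8 for the 6 members with a match and 25.5 for the other 33. The motif was taken from PSMB10, the highest member, so the 6 were bound to include it. A link between the motif and the level was not tested.

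The ATPases of the base take the substrate apart and thread it into the core. All 6 PSMC genes had a mean FPKM above the upper quartile of all genes, although PSMC1 lay below it in library b. PSMC5 had 77.4 FPKM in library a versus 82.9 in library b, and PSMC3 had 54.4 and 60.6. These 2 were above the other 4 in both libraries. PSMC6 had 32.0 and 32.1 FPKM, PSMC2 had 29.0 and 31.2, and PSMC4 had 29.3 and 29.9, so that these 3 lay within a narrow band. PSMC1 was lowest, with 24.7 and 20.8 FPKM, and 13 pseudogenes are named after it, more than for any other member. How reads with several matches were handled is unknown, so its value is uncertain. PSMC5, PSMC2 and PSMC1 also overlap other coding genes: FTSJ3 at 63.4 ± 1.13 FPKM for PSMC5, PMPCB at 12.1 ± 0.0212 FPKM and SLC26A5 without a value for PSMC2, and NRDE2 at 5.63 ± 0.0354 FPKM for PSMC1.

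The other base subunits bind ubiquitin or hold the particle together. PSMD2, a scaffold, had 57.7 FPKM in library a versus 50.0 in library b. PSMD4, a ubiquitin receptor, had 40.2 and 44.3. PSMD1, the larger scaffold, had 23.5 and 25.5 FPKM. The 3 genes kept this order in both libraries. PSMD1 overlaps the serotonin receptor gene HTR2B (37.3 ± 0.502 FPKM). ADRM1, the other ubiquitin receptor of the base, had 37.1 and 35.1 FPKM, which differed from PSMD4 by a log2 ratio of 0.22 ± 0.155, less than 2 SD over the libraries. The ATPase median was 0.44 ± 0.0677 below that of these 3 genes, and with list means the difference was -0.0086.

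The lid carries PSMD14, the metalloprotease that cuts off the ubiquitin chain. All 8 lid genes with PSM symbols lay above the median of all genes, within a 2.47-fold range. SEM1, a lid subunit without such a symbol, had 24.4 and 23.2 FPKM and is not counted among them. PSMD14 had 31.0 FPKM in library a versus 32.0 in library b, and PSMD7, its inactive partner, had 38.8 and 40.2. The scaffold genes ran from PSMD3 (41.4 and 39.5 FPKM) through PSMD6 (34.3 and 31.2), PSMD8 (27.9 and 31.5), PSMD11 (26.0 and 24.9) and PSMD13 (21.2 and 19.2) to PSMD12 (16.9 and 15.8). PSMD13 and PSMD12 were the 2 lowest in both libraries, and they alone of the lid genes were not above the upper quartile. The ATPase median lay 0.022 ± 0.0329 above that of the lid on the log2 scale, less than the spread between libraries, but with list means the difference was 0.42. The 17 genes of the 19S particle with PSM symbols, without ADRM1 and SEM1, had a median 2.69-fold above that of all genes. The median of the 20S core lay 3.09-fold above it. The log2 difference of 0.20 ± 0.00917 between core and 19S became -0.098 with list means.

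The lid shares its architecture with the COP9 signalosome, which removes NEDD8 from cullins, and with eIF3, the translation initiation factor, so these were set beside it. The CCT chaperonin, which folds actin and tubulin, served as a further ring of fixed composition. Its 8 genes had a median 2.99-fold above that of all genes, and all 8 exceeded the upper quartile. For eIF3 the median lay 2.63-fold above, for the COP9 signalosome 1.53-fold and for all 45 proteasome genes 2.53-fold. A high level was thus not particular to the proteasome. The lid median was 1.70-fold above that of the COP9 signalosome, a log2 difference of 0.77 ± 0.0753 over 8 and 10 genes. From eIF3 it differed by -0.013 ± 0.109, less than the spread between libraries. With list means the difference was 0.41 from the COP9 signalosome and 0.14, of opposite sign, from eIF3. The matching enzymes differed in the same direction as the lid and the COP9 signalosome, with PSMD14 1.67-fold above COPS5 (18.9 ± 0.757 FPKM; log2 ratio 0.74 ± 0.0230). Their inactive partners differed in the opposite one, with PSMD7 lying 1.98-fold below COPS6 (78.4 ± 1.59 FPKM; log2 ratio -0.99 ± 0.00711).

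The spread among genes of one complex was set beside that among all genes. The SD of the log2 levels over genes was 0.73 for the 13 core genes, against 1.47 for all genes. For the 17 listed genes of the 19S particle it was 0.57, and for the 8 lid genes among them 0.45. It was 0.40 for the 8 CCT genes, 0.85 for the 10 COP9 signalosome genes and 1.24 for the 13 eIF3 genes. The last came to 0.79 without EIF3C (2.60 ± 0.0354 FPKM), which has a near-identical copy. Within the core, the highest gene exceeded the lowest 8.09-fold, and within the 19S particle 4.90-fold.

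**Figure D3:**
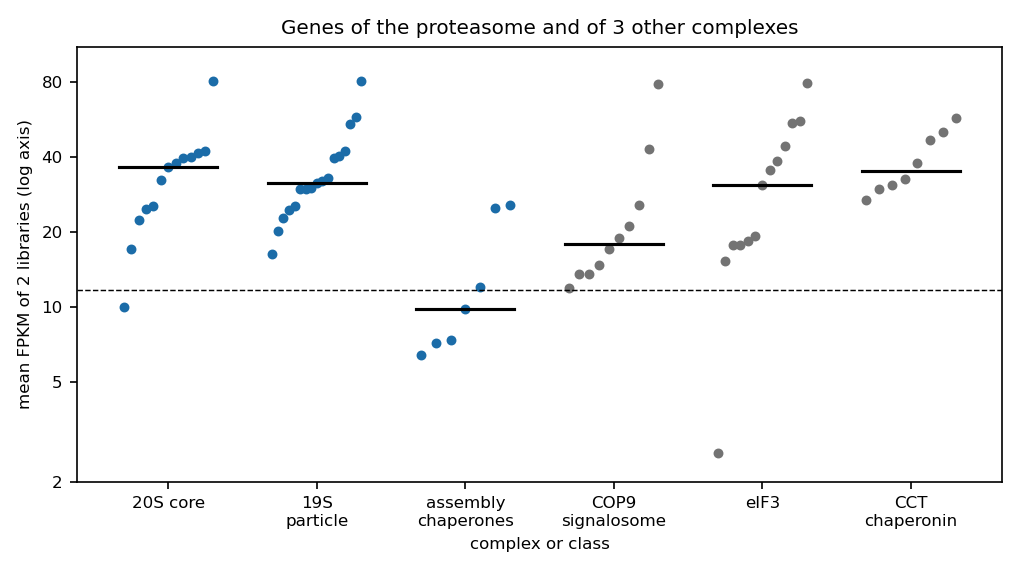
Each point is the mean FPKM over the 2 libraries (vertical, log axis) of a gene. The 20S core, the 19S particle and the assembly chaperones hold PSM symbols only, and 3 other complexes stand beside them. Bars are medians and the dashed line is the median of all genes. The core and the 19S particle have medians of 36.3 and 31.5 FPKM, and the chaperones have a median of 9.85 FPKM, below the line.

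The assembly chaperones with PSM symbols formed the lowest of the 8 classes. They guide the building of the particle and are not part of the finished one. They had a median FPKM of 10.4 in library a against 9.31 in library b, below the median of all genes in both, and 3 of the 7 exceeded that median. The assembly factors POMP (28.5 ± 1.07 FPKM) and PAAF1 (15.8 ± 1.77 FPKM) lack a PSM symbol and are not counted in this class. Both exceeded the median of all genes, so the class level depends on which assembly factors are counted. The class median lay 3.66-fold below that of the core (log2 difference -1.87 ± 0.118). PSMG1 and PSMG2 act as one dimer on the alpha ring, but PSMG1 had 25.5 and 24.5 FPKM and PSMG2 only 6.46 and 6.35, a 3.86-fold difference (log2 ratio 1.95 ± 0.0259). PSMG3 and PSMG4 form the second dimer, and there too the levels parted: PSMG3 had 23.8 and 27.3 FPKM and PSMG4 had 6.56 and 7.83, a 3.52-fold difference (log2 ratio 1.82 ± 0.0391). PSMG2 overlaps the coding genes CEP76 (6.93 ± 0.177 FPKM) and SPIRE1 (9.37 ± 0.721 FPKM). In each dimer 1 gene was thus above the upper quartile and the other below the median of all genes, in both libraries.

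The chaperones of the base are PSMD5, PSMD9 and PSMD10, each of which holds particular ATPases until the ring closes. PSMD10 had 13.7 FPKM in library a versus 10.5 in library b, PSMD5 had 10.4 and 9.31, and PSMD9 had 6.97 and 7.82. All 3 were lower than every other PSMD gene in both libraries. Placed with the lid genes, they brought the lid median from 1.38 to 1.12 above that of all genes on the log2 scale. The median of the 4 PSMG genes alone then came to 0.20 above all genes, where the whole class had stood at -0.24 ± 0.105. PSMD10 overlaps the autophagy gene ATG4A (5.15 ± 0.629 FPKM).

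The activators open the core in place of the 19S particle. PSME1 and PSME2 form the cytoplasmic PA28 ring that interferon gamma induces, PSME3 forms the nuclear one, PSME4 encodes the nuclear activator PA200, and PSMF1 encodes an inhibitor. PSME1 had 74.4 FPKM in library a versus 77.3 in library b, and PSME2 had 45.1 and 50.3, so that PSME1 exceeded its ring partner 1.59-fold (log2 ratio 0.67 ± 0.0722). PSME3 had 57.1 and 56.9 FPKM, between those of PSME1 and PSME2 in both libraries. PSME4 had 13.4 and 13.0 FPKM, 4.30-fold below PSME3 (log2 ratio 2.11 ± 0.0249), and PSMF1 had 13.6 and 16.7. The activators of PA28 type were thus all above the upper quartile of all genes, whereas PSME4 and PSMF1 were not. PSME1 and PSME2 lie on either side of EMC9, which encodes a membrane protein insertion factor and had 78.4 and 80.8 FPKM. The next coding gene beyond PSME2 is RNF31, a ubiquitin ligase, at 25.6 and 22.3 FPKM. PSME2 has 6 pseudogenes named after it.

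Partners of the proteasome outside the PSM symbols were described by lists. All 5 genes of further subunits and assembly factors had values, with a median of 28.5 FPKM, and all 5 exceeded the median of all genes. AKIRIN2, which carries proteasomes into the nucleus, had 47.8 and 46.8 FPKM, ADRM1 was next, POMP, the chaperone of the beta ring, had 29.3 and 27.7, and PAAF1, which binds free ATPases, was lowest with 14.6 and 17.1. Associated enzymes and shuttle receptors were more spread. Of 15 listed, 14 had values, with a median of 16.4 FPKM, and 10 exceeded the median of all genes. ZFAND5, a ubiquitin-binding activator of degradation, led with 124 and 130 FPKM, and the shuttle receptor RAD23B had 43.2 and 37.9. UBQLN4, another shuttle, was lowest with 4.97 and 4.93.

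The segregase VCP pulls ubiquitinated proteins out of membranes and complexes before they reach the proteasome. VCP itself had 63.1 FPKM in library a versus 61.7 in library b. Its 10 listed cofactors had a median of 15.5 FPKM, with 7 above the median of all genes. UBXN1 had 44.9 and 47.9 FPKM, UBXN6 had 31.7 and 25.4, NPLOC4 had 27.2 and 25.0, and UBXN2A was lowest with 6.12 and 6.5. All 10 thus stood below VCP in both libraries.

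Proteasome genes are known to be induced as a group by NFE2L1, a membrane-bound transcription factor that is freed when proteasome activity is short. NFE2L1 had 48.4 FPKM in library a versus 50.1 in library b, and its relative NFE2L2, the antioxidant regulator, had 29.0 and 32.3, which is 1.60-fold lower (log2 ratio 0.68 ± 0.0743). VCP and NGLY1, which process NFE2L1, stood at 62.4 ± 1.03 FPKM and at 12.3 ± 0.750 FPKM. Of the small MAF partners, MAFF had 19.04 and 19.32 FPKM, MAFG 14.6 and 13.9, and MAFK 10.8 and 8.02. MAFK was the only gene of the 8 in this list below the median of all genes.

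Both factors bind the antioxidant response element, so its core was searched in the promoters of the members. It occurred in 12 of 39 (30.8%), against 14.9% of measured genes and 13.3% of all promoters. Only 4 of the 12 were core or 19S genes, PSMD1, PSMD3, PSMD12 and PSMC4, out of 25 such genes with a promoter, and none was a constitutive core gene. The other 8 were 4 chaperone genes, 3 activator genes and PSMB9. Members with a match had a median of 20.4 FPKM and those without one 31.5 FPKM. Matches upstream of the start in 2 lid genes, in both genes of the PA28 ring and in a chaperone gene are shown with 10 bases on each side, all on the strand of the gene, since they represent 3 classes. They lie at chr17:39980760-39980788 (plus strand), chr17:67366724-67366752 (minus strand), chr14:24136098-24136126 (plus strand), chr14:24146767-24146795 (minus strand) and chr21:39183616-39183644 (minus strand).
PSMD3: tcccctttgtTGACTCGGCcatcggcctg
PSMD12: agacaaaaccTGACGCTGCaggctggagt
PSME1: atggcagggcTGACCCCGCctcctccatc
PSME2: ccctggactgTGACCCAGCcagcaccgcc
PSMG1: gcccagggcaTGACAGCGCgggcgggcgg
A match is a description of letters and shows no binding. The other motifs lay nearer to the shares among measured genes. The ETS core was held by 12 members (30.8%, against 19.5% of measured genes and 10.3% of all promoters), the CCAAT box by 17 (43.6%, against 36.8% and 34.6%), the GC box by 26 (66.7%, against 69.7% and 45.0%), and the NRF-1 centre by 4 (10.3%, against 13.6% and 8.24%). The TATA box was held by 4 members, PSMC2, PSMC1, PSMC5 and PSMD8 (10.3%, against 5.58% and 11.5%).

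Peptides made by the proteasome are shown to T cells on class I molecules. All 14 listed genes of this pathway had values, with a median of 16.8 FPKM, and 11 exceeded the median of all genes. CALR, a chaperone of the endoplasmic reticulum with other clients too, had 399 and 326 FPKM. TAPBP, the editor of bound peptides, had 54.2 and 55.7, HLA-E had 52.0 and 50.8, and ERAP2, a trimming peptidase, was lowest with 1.34 and 0.930. NLRC5 and IRF1, which activate these genes and the inducible beta genes, had 15.6 ± 0.714 FPKM and 12.7 ± 0.106 FPKM. PSMB8 (17.7 ± 0.898 FPKM) and PSMB9 (14.1 ± 0.615 FPKM) thus stood near the median of this list, and PSMB10 above all of it except CALR.

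A number of members share their start region with another gene. For 9 of them RefSeq places the start of a coding gene on the opposite strand within 500 bases upstream, and all 9 partners had values. In 5 pairs the levels were close. PSMD9 had 7.40 ± 0.601 FPKM and HPD 7.58 ± 0.170, PSMG2 6.41 ± 0.0778 and CEP76 6.93 ± 0.177, and PSME4 13.2 ± 0.262 and ACYP2 14.7 ± 0.311. PSMB9 had 14.1 ± 0.615 FPKM and TAP1 12.6 ± 0.891, and PSMC5 80.1 ± 3.91 and FTSJ3 63.4 ± 1.13. The other 4 pairs were further apart: PSMA2 lay 1.77-fold below MRPL32 (17.8 ± 0.721 FPKM), PSMD13 lay 1.91-fold below SIRT3 (38.7 ± 4.12 FPKM), PSME2 1.99-fold above RNF31 and PSMD10 2.31-fold above ATG4A. The median absolute log2 difference was 0.34 over the 9 pairs, against 0.96 over all 668 such pairs of measured coding genes. In 3 of the 9 the spans of the genes also overlap, which without strand could give both the same reads, and over the other 6 the median was 0.49. Pairs with overlapping spans were not left out of the 668, so the 0.49 has no like reference. Within 2-fold lay 8 of the 9 (88.9%), against 52.8% of all 668.

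**Figure D4:**
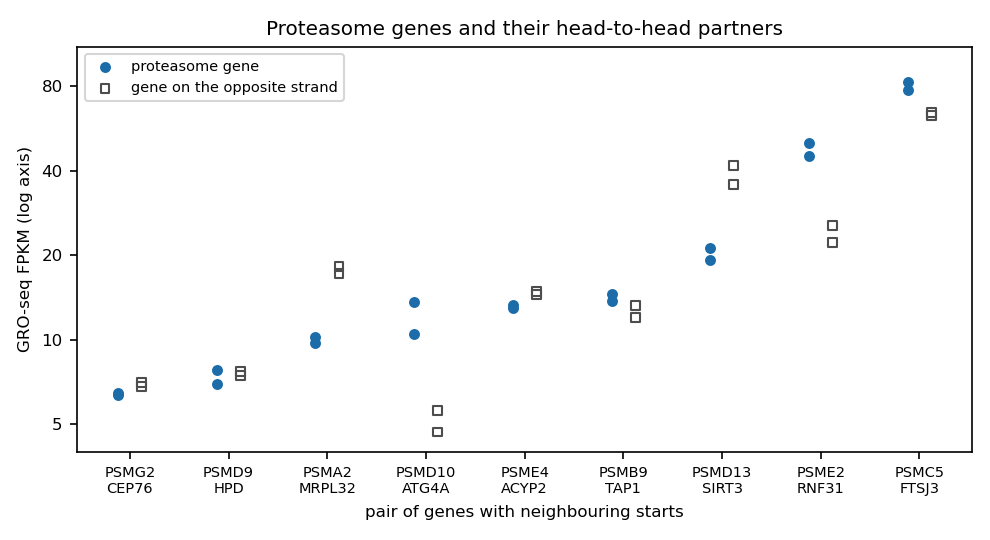
FPKM (vertical, log axis) in the 2 libraries of 9 proteasome genes (filled circles) and of the gene that starts on the opposite strand just upstream (open squares). PSMG2, PSMD9, PSME4 and PSMB9 stand near their partners, and PSMD10 stands 2.31-fold above ATG4A.

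The members differed between the libraries about as much as other genes. After the median shift of all genes was taken off, their median difference was 1.087-fold in size, against 1.097-fold for all genes and 1.087-fold for the 9004 genes within the range of levels of the members. A total of 28 were higher in library b and 17 in library a, against 4581 and 4422 of those 9004 genes. Over all genes the split was even, 6176 and 6176, because their median shift had been taken off. The median log2 difference (b less a) was 0.067 for the members and 0.0038 for the 9004 genes. The libraries stood further apart than 5 to 4 for 3 of the 45 members, against 13.8% of all genes and 861 of the 9004 genes within the range of levels of the members. PSMA7 and PSMA6 were higher in library b, as were 6.57% of all genes, and PSMD10 was higher in library a, as were 7.22%. With the libraries quantile normalized to each other only 1 member passed that limit and the median difference came to 0.039. The alpha genes held both members that passed it upward, so the order of PSMA6 and PSMA7 against PSMA5 changed from one library to the other.

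**Figure D5:**
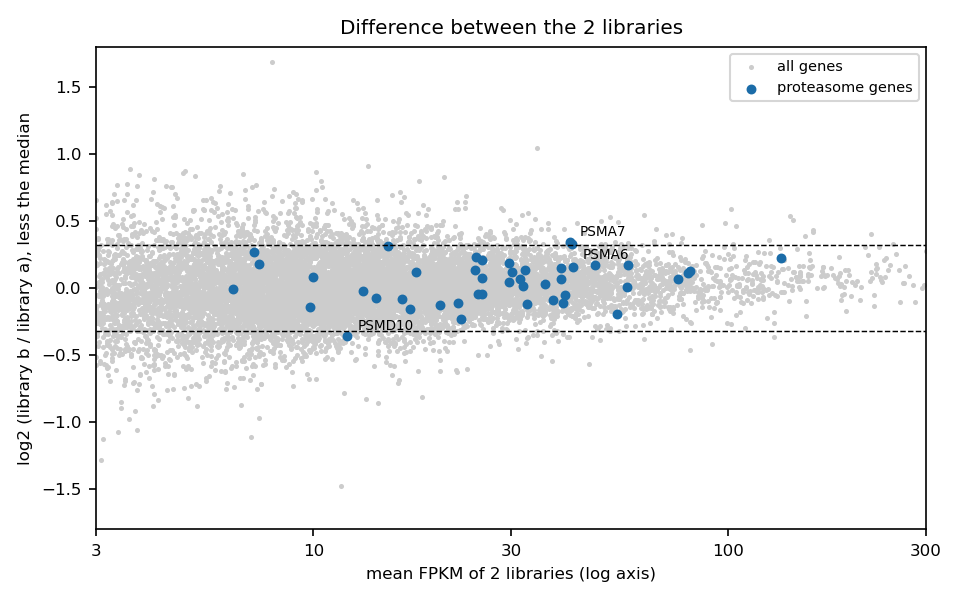
Log2 ratio of library b to library a, less the median of all genes (vertical), against mean FPKM (horizontal, log axis), for all genes (grey) and the 45 proteasome genes (blue); dashed lines mark a ratio of 5 to 4. PSMA7 and PSMA6 lie just above the upper line and PSMD10 below the lower one.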

How the data were processed

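Nascent RNA of untreated BJ cells was sequenced by GRO-seq in 2 biological replicates, per the labels' protocols. The authors deposited FPKM values, one column per library. The submitters' processing notes name Bowtie2, HTSeq and hg19 but no version. The sources used here do not give the gene length, read total, multi-mapping and strand settings. Depth is unknown, so no counting interval is given: ratios between the libraries among the 358 genes under FPKM 2 in both did not pile up (at most 4 genes shared one ratio to 3 decimals). No value was 0.

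Identifiers were paired with symbols through an Ensembl name table (12202 of 12353). Levels were log2(FPKM + 0.1), averaged over libraries, with the SD over libraries; medians over a list were set beside those of all genes. The members and lists were chosen with earlier results of these data known. Every member is named; of other lists, the 3 highest and the lowest gene, the genes of 12 pairs and the neighbours of inducible genes. One gene that this rule selects is not reported here. Overlapping and head-to-head genes, the small MAF genes, NGLY1, NLRC5, IRF1 and SEM1 were chosen after their values were seen. No protein sequences were analysed here. Overlaps and neighbours came from RefSeq on GRCh38, whose positions are given only with printed sequences. Python 3.11.15, numpy 2.4.6 and pandas 2.3.3 were used; the list summary was tested on simulated data. Alternatives were the pseudocount, a minimum level, each library alone, quantile normalization, list means and membership.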

Additional observations from a re-analysis of the deposited data

How the results depend on the processing

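Of 269 alternative values over 40 results, 208 moved by less than the spread between libraries (counts: by at most 1.5 times). The limits are 2 libraries, an unknown depth, an unstated gene length and short lists, whose medians can rest on 1 gene; the cause of each move below was not tested. Values are log2 unless they are counts. With list means the class levels over all genes were 1.19 for alpha, 1.42 for inducible beta, 1.65 for ATPase, 1.66 for non-ATPase base, 1.23 for lid, -0.066 for chaperone and 1.47 for activator genes, and 1.19 for all members. The contrasts became -0.37 (alpha less constitutive beta) and -0.098 (core less 19S), both reversed, 0.14 (constitutive less inducible beta), -0.0086 (ATPase less base), 0.42 (ATPase less lid), -1.43 (chaperones less core), 0.41 (lid less COP9 signalosome) and 0.14 (lid less eIF3). With a pseudocount of 1 they were 1.67 (alpha), 1.48 (constitutive beta), 1.34 (ATPase), 0.84 (PSMB5 to PSMB8), 1.36 (PSMB6 to PSMB9) and 0.92 (constitutive less inducible beta). With each library alone the alpha level was 1.64 to 1.70, alpha less beta 0.12 to 0.14, ATPase less lid 0.012 to 0.058 and core less 19S 0.21 to 0.22. Quantile normalization gave a median library difference of 0.039 and 1 member past 5 to 4. With PSMD5, PSMD9 and PSMD10 among the PSMD genes, the lid stood at 1.12 and the chaperones, reversed, at 0.20. Without members that overlap a coding gene, an alternative chosen after seeing the data like that for EIF3C, all members stood at 1.43. A pseudocount of 0.01 and a minimum FPKM of 1 moved none of the results about the members. No paired analysis was possible because the libraries form 1 group.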
